A study of Bos taurus and Bos indicus x Bos taurus with 938 samples.

Results

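Bovine 2-cell embryos made by somatic cell nuclear transfer (SCNT) were compared with 2-cell embryos made by in vitro fertilisation (IVF) in single-blastomere ATAC-seq, which marks open chromatin by the insertion of Tn5 transposase. Members were the blastomeres whose labels give a cell number of 2 and whose library could be tied to a column of the table, 200 blastomeres (24.4% of all in the table) of 110 embryos (47.4% of all). SCNT contributed 71 blastomeres of 43 embryos, both sisters of 28 embryos and 1 blastomere of 15. IVF contributed the other blastomeres, both sisters of 62 embryos and 1 blastomere of 5. Another 12 SCNT and 8 IVF libraries with 2-cell labels had no column and were not analysed here. Both types were built on abattoir oocytes matured in vitro. SCNT embryos are labelled Bos taurus, and the sources used here name no donor cell for their nuclei. IVF embryos were fertilised with frozen-thawed semen and are labelled Bos indicus x Bos taurus. The labels used here give no sex for the embryos.

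In nuclear transfer the oocyte's own chromosomes are replaced by the nucleus of a somatic cell, whose chromatin has to be reset by the oocyte, whereas fertilisation joins an oocyte genome and a sperm genome. At 2 cells a cow embryo has divided once and lies before the main wave of genome activation, which in cattle falls around the 8-cell stage. The sister blastomeres of such an embryo are the products of 1 division and share the embryo's oocyte, culture and handling.

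Each region of the table is called open or closed in each blastomere, and regions carry running numbers without coordinates, genes or sequence. The number of open calls stands in for depth, and a missing call can come from few recovered fragments as well as from closed chromatin. All SCNT libraries have title prefix 15243 or 15244 and all IVF libraries 15286 or 15287, so type, prefix and organism label cannot be told apart. Embryos were taken apart and each blastomere was cut with Tn5 in a tube of its own, with an enzyme volume chosen per batch, and the labels do not say which embryos shared one. The cells could not be checked against marker genes, since no region is tied to a gene. Nothing in the labels places embryos of a type in separate culture days. The p-values take these embryos as independent replicates, which could not be checked, and do not cover variation between days or batches.

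SCNT blastomeres had fewer open regions than IVF blastomeres. The median was 3484 open regions in SCNT, or 1.15% of all regions, and 10168 in IVF, or 3.36%. The blastomeres ran from 0.172 to 10.0% of regions in SCNT and from 0.240 to 35.1% in IVF. Fewer than 1000 regions were open in 14 SCNT and in 2 IVF blastomeres. The ranges overlapped widely, but the mean log10 calls per embryo fell to 3.54 ± 0.443 in SCNT (SD, n = 43), against 3.99 ± 0.327 in IVF (SD, n = 67), a difference of -0.457 (two-sided permutation test over embryos, adjusted p = 3.5e-05 over 7 single-value comparisons, the smallest that 100000 shuffles allow there). Among SCNT libraries the median was 4096 calls under prefix 15243 and 2004.5 under prefix 15244, and among IVF libraries it was 10219 under 15286 and 8696 under 15287.

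**Figure D1:**
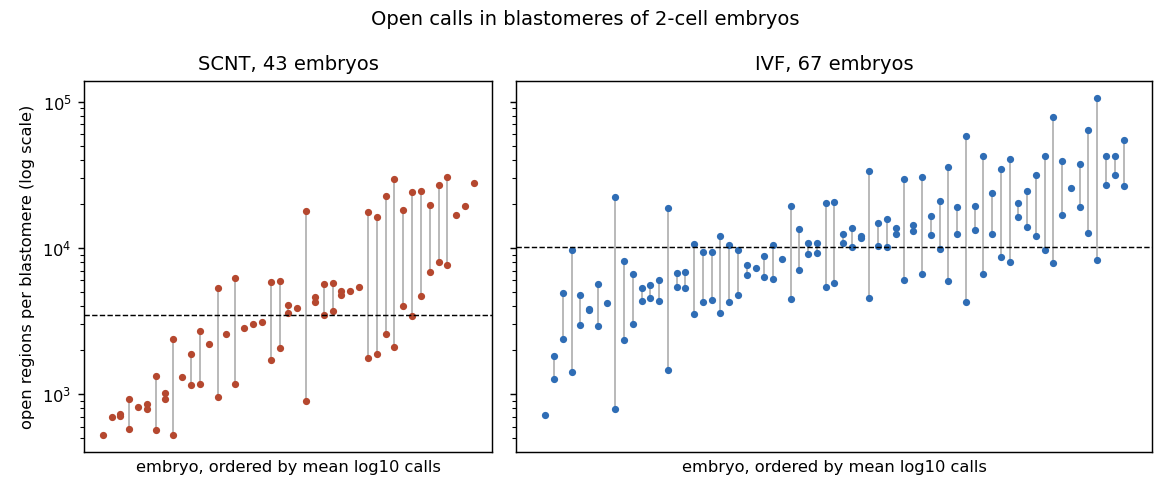
Open regions per blastomere (log axis) in 43 SCNT and 67 IVF embryos at 2 cells, each point a blastomere, sisters joined by a line and embryos ordered by mean log10 calls; dashed lines mark the medians of 3484 and 10168. Most SCNT blastomeres lie below the IVF median, and sisters of both types can differ more than 10-fold.

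Sisters often differed several-fold in calls in both types. The median fold between sisters was 3.13 in 28 SCNT pairs and 2.01 in 62 IVF pairs. The widest gaps were 904 calls in blastomere_96A and 17866 in blastomere_96B among SCNT embryos, and 22432 calls in blastomere_606A and 789 in blastomere_606B among IVF embryos. The mean absolute difference in log10 calls was 0.501 ± 0.371 in SCNT (SD, n = 28) and 0.391 ± 0.329 in IVF (SD, n = 62), which did not pass (permutation test, adjusted p = 0.188). Sister A had more calls in 17 of 28 SCNT pairs and in 31 of 62 IVF pairs. The spread of calls among embryos, as mean absolute deviation from the median, was 0.353 in SCNT and 0.259 in IVF and just missed the threshold (permutation test, adjusted p = 0.0517). Without the last run of consecutive SCNT embryo numbers, that difference of 0.0945 became 0.122 with an adjusted p of 0.0133 in the same permutation test.

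Whole blocks of neighbouring regions were missing from single IVF blastomeres and almost never from SCNT blastomeres. The region numbering falls into 29 blocks of neighbouring numbers that were open together in the same blastomeres, with boundaries taken from embryos of other cell numbers. The coverage of a block is its observed open calls over those expected from the blastomere's total and the openness of its regions, and a block with coverage under 0.1 is called absent. Of the blastomeres with at least 2000 calls in the blocks, 1 of 42 in SCNT lacked at least 1 block (2.38%, exact 95% interval 0.0603 to 12.6%). In IVF 68 lacked at least 1 block and 50 lacked none, a share of 57.6% (exact 95% interval 48.2 to 66.7%). Averaged per embryo, the share with such a loss was 3.33 ± 18.3% in SCNT (SD, n = 30) and 56.9 ± 42.3% in IVF (SD, n = 65), a difference of -53.6 points (permutation test, adjusted p = 3.5e-05). In blastomeres with 3000 to 15000 calls the difference was -50.9 points, but depth was not equal within that window. Its SCNT blastomeres had a median of 4752 calls and its IVF blastomeres 8107.5. The difference at the lower depth typical of SCNT was not tested. Intervals, and the limits that a count of 0 allows, cover counting error only.

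Loss in IVF blastomeres ranged from a single block to 15 of the 29. Among the 68 affected IVF blastomeres, 21 lacked 1 block, 24 lacked 2 to 4 and 23 lacked 5 or more, with the most in blastomere_609A. In all, 8 of 1218 block values in SCNT (0.657%) and 277 of 3422 in IVF (8.09%) were absent. All 8 SCNT values belonged to blastomere_35A, a blastomere with 16940 calls whose sister is not in the table. In blastomere_35A, blocks 2, 5, 6, 7, 13, 21, 22 and 28 had between 0.0456 and 0.0885 of their expected calls, for example 24 calls in block 28, at 0.0456 of expected.

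Every block was absent from some IVF blastomere. Block 28 was absent in 1 of 42 SCNT and 15 IVF blastomeres (12.7%), and blocks 9 and 12 were absent in 0 of 42 SCNT and 14 IVF blastomeres each (11.9%). A count of 0 of 42 allows a share of up to 7.14%. At the other end, block 27 was absent in 0 of 42 SCNT and 2 IVF blastomeres.

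**Figure D2:**
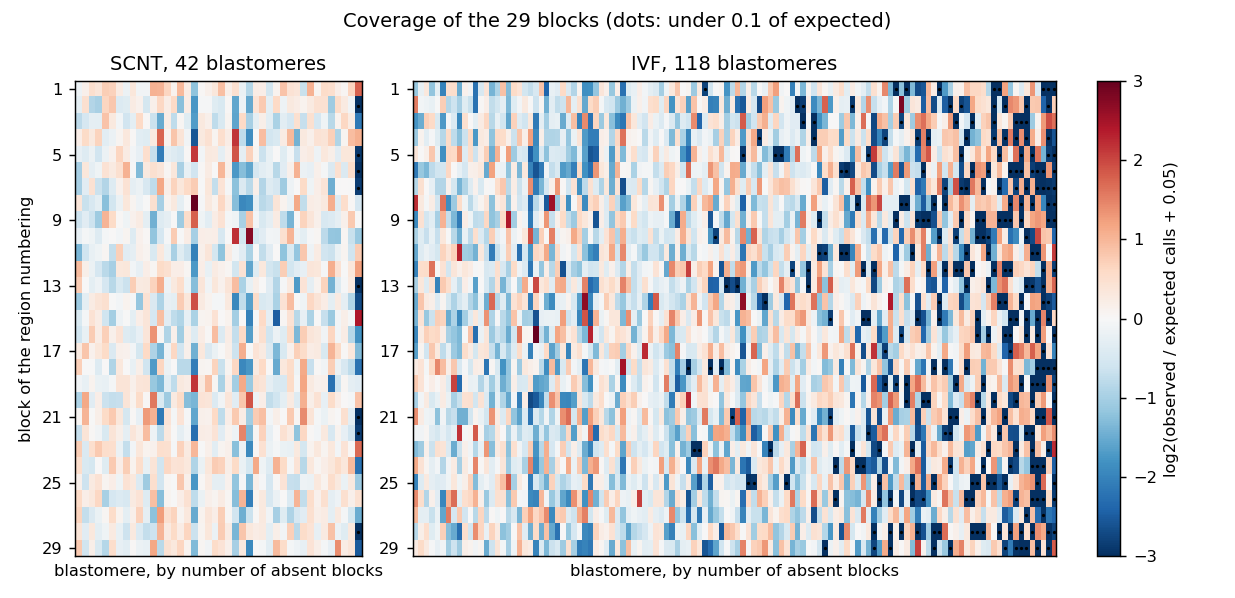
Coverage of the 29 blocks (rows) in 42 SCNT blastomeres and the IVF blastomeres (columns, ordered by number of absent blocks) with at least 2000 calls in the blocks, as log2 of observed over expected calls plus 0.05; black dots mark blocks under 0.1 of expected. A single SCNT column carries dots, against 68 IVF columns.

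When an IVF blastomere lacked a block, its sister usually had more of it than expected. Among 53 IVF pairs with both sisters at 2000 or more block calls, 13 had no absent block, 18 had them in 1 sister and 22 in both sisters. In these pairs both sisters lacked the same block 5 times, and in every other case 1 sister alone lacked it by the cut of 0.1. In those cases the coverage in the other sister had a median of 1.56 (quartiles 1.05 and 2.09), and it was above 1 in 76.2% of them. In some of them it lay just above the cut, for example at 0.100 for block 6 in blastomere_609B. For blocks absent from neither sister of an IVF pair the median coverage was 0.849 and 39.4% of the 2568 values were above 1. None of the 12 SCNT pairs had an absent block, which allows a share of up to 25% of pairs, and their median block coverage was 0.981. Coverage is relative within a blastomere, so the loss of some blocks by itself raises the others.

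Individual IVF embryos showed this exchange across most of the blocks. Sister blastomere_505A lacked 12 blocks and its sister blastomere_505B lacked 9, with 14872 and 10341 calls, and Pearson's r of log2 coverage over the 29 blocks was -0.844. Likewise blastomere_557B lacked 13 blocks while its sister blastomere_557A lacked 7. Block 6 had 31 calls against 869 expected in blastomere_557B and 2975 against 1196 expected in blastomere_557A. Not every pair was complementary: blastomere_559B lacked 9 blocks and blastomere_559A none by the cut of 0.1, and their r was 0.627, the highest among IVF pairs. The same 9 blocks were low in blastomere_559A too, at 0.113 to 0.241 of expected. The embryo of blastomere_609A and blastomere_609B was mixed, since block 7 had a coverage of 0.0873 in blastomere_609A and 3.43 in blastomere_609B, whereas block 6 had 0.0868 in blastomere_609A and 0.100 in blastomere_609B.

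Over all pairs, Pearson's r of sisters over the 29 blocks averaged 0.156 ± 0.280 in SCNT (SD, n = 12 pairs) and -0.339 ± 0.383 in IVF (SD, n = 53 pairs), a difference of 0.495 (permutation test, adjusted p = 0.000187). It was below 0 in 2 of 12 SCNT pairs and in 39 of 53 IVF pairs, and below -0.5 in 0 SCNT and 22 IVF pairs. The lowest SCNT value was -0.422, in blastomere_103A and blastomere_103B, and the highest 0.613, in blastomere_28A and blastomere_28B. In pairs without any absent block the mean was 0.156 ± 0.280 in SCNT (n = 12) and -0.213 ± 0.363 in IVF (n = 13), a difference of 0.368 (permutation test, adjusted p = 0.019). With SCNT of prefix 15244 alone, which has 2 pairs, the difference of 0.443 did not pass (permutation test, adjusted p = 0.141).

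**Figure D3:**
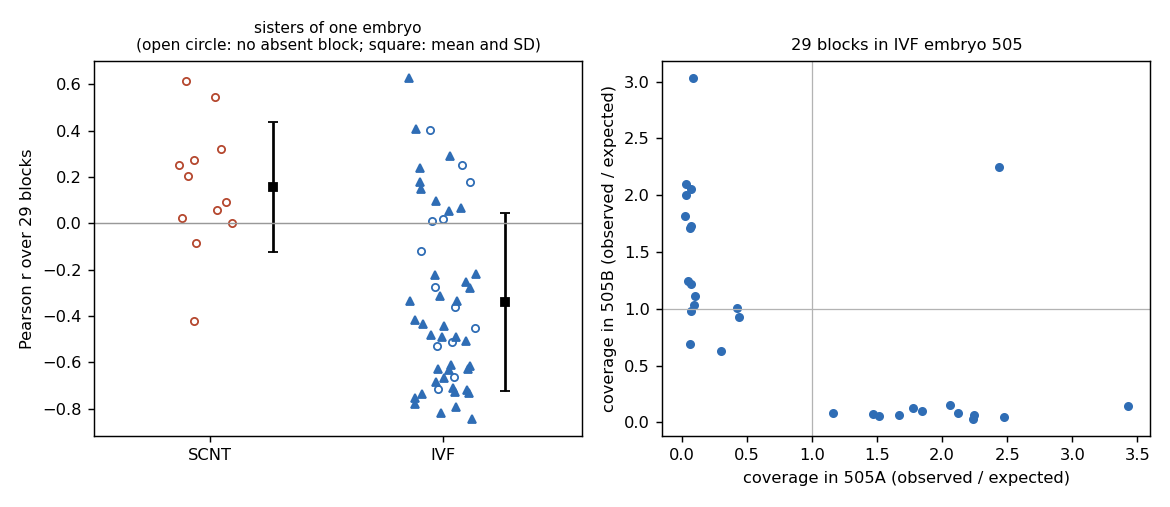
Left, Pearson's r over the 29 blocks between the sisters of each embryo (open circles, pairs with no absent block; triangles, pairs with one; squares, mean and SD) in 12 SCNT and 53 IVF pairs; right, coverage of each block in the IVF sisters blastomere_505A and blastomere_505B. SCNT pairs centre on 0.156 and IVF pairs on -0.339, and blastomere_505A and blastomere_505B lack 12 and 9 blocks that the other sister holds.

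Coverage was also more even within SCNT blastomeres than within IVF blastomeres. In blastomeres with 3000 to 15000 calls the SD of log2 coverage over the 29 blocks, averaged per embryo, was 0.585 ± 0.258 in SCNT (SD, n = 20) and 1.14 ± 0.429 in IVF (SD, n = 56), a difference of -0.553 (permutation test, adjusted p = 2.5e-05 over 5 tests added after the data had been seen). Leaving out blastomeres with an absent block gave 0.585 in SCNT and 0.877 ± 0.299 in IVF (SD, n = 32), a difference of -0.292 (permutation test, adjusted p = 0.0011). Within that window SCNT blastomeres had a median of 4752 calls and IVF blastomeres 8107.5.

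Of the 33 blocks and segments, 5 differed in mean coverage between types (15.2%), 2 higher (6.06%) and 3 lower in SCNT (9.09%), and 4 of the 5 lay in the last part of the numbering. Block 1 was the sole numbered block to pass, with a coverage of 1.23 ± 0.484 in SCNT (SD, n = 37 embryos) and 0.850 ± 0.393 in IVF (SD, n = 66), a difference of 0.376 (permutation test, adjusted p = 0.000198 over 33). Without blastomeres that lack a block its difference of 0.279 did not pass (permutation test, adjusted p = 0.0647), nor did that of 0.304 in blastomeres with 3000 to 15000 calls (adjusted p = 0.0806). The other 28 blocks did not pass, with differences from -0.179 in block 17 to 0.256 in block 4. After block 29 come 4 segments. The mixed segment holds 20450 regions, the dense segment 3500, segment P 4400 and segment Q 380, and nothing in the table says what they are.

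The dense segment was the most open stretch of the numbering and was open less in SCNT. It holds 8.31% of all calls of the series, and 27.5% of its values are open. Its coverage fell to 0.883 ± 0.359 in SCNT (SD, n = 37), against 1.20 ± 0.189 in IVF (SD, n = 66), a difference of -0.318 (permutation test, adjusted p = 8.25e-05). At 2000 to 4000 calls per blastomere, the median share of dense regions that were open was 9.0% in 15 SCNT and 18.4% in 9 IVF blastomeres. At 4000 to 8000 calls it was 16.7% in 17 SCNT and 27.5% in 35 IVF blastomeres, and at 16000 to 32000 calls it was 34.4% in 14 SCNT and 45.7% in 22 IVF blastomeres. At 4000 to 8000 calls the dense segment took 12.7 ± 5.71% of calls in SCNT (SD, n = 15 embryos) and 18.0 ± 3.01% in IVF (SD, n = 29 embryos), a difference of -5.31 points (permutation test, adjusted p = 0.00015 over the 5 added tests). The SCNT blastomeres of that window spread wider, from 5.62 to 29.8% of calls, than the IVF blastomeres, from 12.1 to 25.0%.

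**Figure D4:**
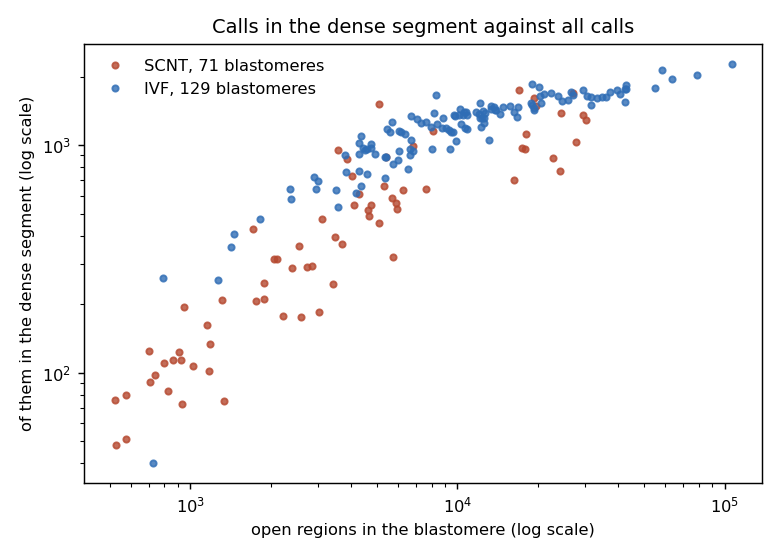
Open regions in the dense segment against all open regions of the blastomere, both on log axes, for the SCNT and IVF blastomeres at 2 cells. At equal totals most SCNT points lie below the IVF points, with medians of 16.7 and 27.5% of dense regions open at 4000 to 8000 calls.

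The mixed segment moved the same way by a smaller step, with a coverage of 0.955 ± 0.122 in SCNT (SD, n = 37) and 1.06 ± 0.0847 in IVF (SD, n = 66), a difference of -0.102 (permutation test, adjusted p = 8.25e-05). This call was lost with depth taken from commonly open regions (-0.00699) and in blastomeres with 3000 to 15000 calls (-0.0618). The other 3 segments passed in that window, with differences of -0.276 in the dense segment, -0.367 in P and 1.92 in Q.

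Regions that are open in many blastomeres had lower coverage in SCNT when blocks and segments were pooled, but not when those inside the blocks were taken alone. Commonly open regions were the 9972 regions open in at least 25% of deep blastomeres of other cell numbers, those with at least 8000 calls. Their log2 coverage was -0.262 ± 0.283 in SCNT (SD, n = 37) and -0.0923 ± 0.212 in IVF (SD, n = 66), a difference of -0.169 (permutation test, adjusted p = 0.00147). With a 50% minimum the difference was -0.355. For the 6982 of these regions inside the blocks alone the difference was 0.0818 and did not pass (permutation test, adjusted p = 0.21).

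Split by openness, in blastomeres with 3000 to 15000 calls, 5 of 10 classes of regions differed between types. Among 1937 regions outside the blocks that were open in at least 50% of deep blastomeres, coverage was 0.994 ± 0.356 in SCNT (SD, n = 20) and 1.22 ± 0.173 in IVF (SD, n = 56), a difference of -0.223 (permutation test, adjusted p = 0.0027 over 10 classes). Regions of that openness inside the blocks had 0.840 ± 0.173 in SCNT and 0.859 ± 0.129 in IVF, which did not pass (permutation test, adjusted p = 0.675). Rarely open regions went the other way: the 190772 regions inside the blocks that were open in under 5% of deep blastomeres had 1.31 ± 0.173 in SCNT and 1.14 ± 0.103 in IVF, a difference of 0.169 (permutation test, adjusted p = 0.0001). Both types lay above 1 in that class. Coverage is relative within a blastomere, so lower coverage outside the blocks by itself raises coverage inside them. SCNT blastomeres of the window also had fewer calls, a median of 4752 against 8107.5 in IVF. A separate gain of rarely open regions in SCNT was therefore not tested. These classes were formed after the data had been seen.

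A core of regions was open in at least 90% of the deep blastomeres of other cell numbers, SCNT and IVF together. It held 86 regions of the dense segment, 37 of the mixed segment, 68 of the blocks and 1 of segment P. At 2 cells the percentage of the core that was open, per embryo, fell to 66.9 ± 20.0 in SCNT (SD, n = 37), against 89.6 ± 10.9 in IVF (SD, n = 66), a difference of -22.7 points (permutation test, adjusted p = 2.5e-05 over the 5 added tests). Between 4000 and 8000 calls it was 74.8 ± 12.3 in SCNT (SD, n = 15) and 84.4 ± 10.9 in IVF (SD, n = 29), a difference of -9.64 points (permutation test, adjusted p = 0.0115). All but 3 regions of the core were open in a smaller share of SCNT than of IVF blastomeres, without regard to depth. The widest gap was at V95721 in block 10, open in 22 of 71 SCNT blastomeres and 90.7% of IVF blastomeres. The 3 exceptions were V109812 in block 12, open in every SCNT and every IVF blastomere, V277924 in the dense segment, open in 69 of 71 SCNT and 95.3% of IVF blastomeres, and V277921 in the dense segment, open in 65 of 71 SCNT and 86.8% of IVF blastomeres. These regions were chosen after their values were seen.

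Segment P was lower and segment Q higher in SCNT. The coverage of P was 0.715 ± 0.364 in SCNT (SD, n = 37) and 1.07 ± 0.371 in IVF (SD, n = 66), a difference of -0.359 (permutation test, adjusted p = 8.25e-05). Over blastomeres it ran over 0.0757, 0.611 and 3.33 in SCNT (lowest, median and highest of 57 with at least 1000 calls), and over 0.0725, 1.00 and 3.07 in IVF, so the types overlapped. Within SCNT the summed calls were 0.731 of expected under prefix 15243 and 0.574 under prefix 15244, and within IVF they were 1.06 of expected under prefix 15286 and 1.17 under prefix 15287.

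Segment Q had few calls in IVF and between 0 and 8.99 times the expected calls in SCNT blastomeres. Its coverage rose to 2.05 ± 1.69 in SCNT (SD, n = 37), against 0.405 ± 0.883 in IVF (SD, n = 66), a difference of 1.65 (permutation test, adjusted p = 8.25e-05). The summed calls were 1.98 times those expected in SCNT, 927 against 469, and 0.257 of the 1995 expected in IVF. Coverage was above 1 in 42 of 57 SCNT blastomeres (73.7%) and in 3 IVF blastomeres (2.36%). The highest SCNT values were 8.99 in blastomere_101B, with 34 calls against 3.78 expected, and 7.31 in blastomere_103B. Under prefix 15244 alone the mean difference from IVF of prefix 15286 was 0.612 and did not pass (permutation test, adjusted p = 0.39), although the summed calls were 1.74 of expected there and 2.03 under prefix 15243.

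In segment Q, sisters fell on the same side of 1 in 14 of 20 SCNT pairs and 58 of 61 IVF pairs. With 73.7% of SCNT and 2.36% of IVF blastomeres above 1, many unrelated blastomeres would agree too. Likeness of sisters beyond that was not tested. Both SCNT sisters were above 1 in 11 of 20 pairs, neither was in 3, and the sisters differed in 6. Neither IVF sister was above 1 in 58 of 61 pairs.

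IVF blastomere_542B stood apart from its own group in segment Q. It had 62 Q regions open where 4.27 were expected, a coverage of 14.5, while its sister blastomere_542A had 1 where 5.24 were expected, and the next highest IVF value was 1.30. Of its 62 Q regions, 58 were also open in at least 1 SCNT blastomere and 11 in at least 1 other IVF blastomere, among 300 and 97 such regions of the 380 in the segment. Its total of 4360 calls, its P coverage of 0.588 against 0.436 in blastomere_542A and its lack of absent blocks lay within the ranges of both types. Its dense coverage of 1.81 was above the medians of both types, 0.789 in SCNT and 1.13 in IVF. Without blastomere_542B the difference in Q between types was 1.76 in place of 1.65.

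The same directions stood at later cell numbers in the dense segment at 4 cells and in P and Q at 4 and 8 cells, as descriptions. The median coverage of the dense segment was 0.793 in SCNT and 1.14 in IVF at 4 cells, and 0.956 in SCNT and 0.957 in IVF at 8 cells. Median Q coverage was 1.36 in SCNT and 0.405 in IVF at 4 cells, and 1.71 in SCNT and 0.373 in IVF at 8 cells.

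Single regions were then compared, with the observed and expected calls of each embryo (40 SCNT and 66 IVF embryos with at least 1000 calls). In this combined test, p was the larger of a limma-moderated quasi-Poisson p and an exact binomial p. Of 60461 regions open in at least 10% of embryos, 29 passed (0.0480%), 28 higher in SCNT (0.0463%) and 1 lower (0.00165%). Without adjustment 2.01% had p under 0.05 and were higher in SCNT and 1.80% were lower. Those shares differed along the numbering: in the dense segment 1.59% were higher and 27.8% lower, and in the blocks 2.09% were higher and 0.617% lower. The median log2 ratio of SCNT over IVF, each as observed over expected calls, was -0.54 in the dense segment and -0.04 in the blocks. Of the regions that passed, 9 were among the 19 tested regions of segment Q and 9 among the 2082 of the dense segment. Another 2 were among the 5383 of the mixed segment, 1 among the 945 of segment P and 8 among the 52032 of the blocks. The filter pooled both types, and 19 of the 380 Q regions met it. Regions rarely open in IVF, in Q and elsewhere, could meet it only through SCNT embryos, so 9 of 19 is no separate evidence on Q. Simulated embryos had a random factor per block or segment, shared by sisters and equally spread in both types. They did not mimic the absent blocks and opposed sisters of IVF, so false calls from these were not tested. In the simulated data without change the test called 0 of 61935 regions. With 62185 regions it recovered 48 of 50 whose rate in SCNT was raised 16-fold and 5 of 48 raised 4-fold. It recovered 0 of 33 lowered 4-fold and 1 of 30 lowered 16-fold, so it seldom called such a fall in SCNT. The changed regions were drawn from moderately open ones at 2 cells, and region openness was not refitted. Recovery of falls at frequently open regions was therefore not tested.

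The region with the smallest p was V277560 in the dense segment. It was open in 21 of 40 SCNT embryos and 3 of 66 IVF embryos, with 24 calls against 9.19 expected in SCNT and 3 against 34.6 expected in IVF (quasi-Poisson test moderated with limma, adjusted p = 1.18e-08). V278108, in the same segment, was open in 19 of 40 SCNT and 4 of 66 IVF embryos (combined limma and exact binomial test, adjusted p = 4.26e-07). The directly neighbouring regions V277561 and V278109, picked out after their values were seen, passed in the same direction. In block 28 the neighbours V259856 and V259855 were open in 14 and 15 of 40 SCNT embryos, and each in 3 of 66 IVF embryos (combined limma and exact binomial test, adjusted p = 4.69e-05 and 6.78e-05). All of these dense and block regions were rarely open in IVF, so they met the pooled filter only through SCNT embryos.

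In segment Q the named regions, which met the filter through SCNT embryos, were almost never open in IVF. V302718, V302514 and V302544 were each open in 14 of 40 SCNT embryos and 1 of 66 IVF embryos. V302540 was open in 16 SCNT and 1 IVF embryos and V302531 in 18 SCNT and 1 IVF embryos. V302523 was open in 19 SCNT and 3 IVF embryos. The adjusted p of these 6 regions lay between 2.24e-06 and 0.000567 (combined limma and exact binomial test). Across all 9 Q regions that passed, IVF embryos had 15 calls, 5 of them in blastomere_542B. Without blastomere_542B, 29 regions were higher and 1 lower in SCNT, and all 29 regions that passed with it were among them.

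The 1 region lower in SCNT, V278113, was open in 6 of 40 SCNT embryos and 65 of 66 IVF embryos. It had 6 calls against 22.9 expected in SCNT and 96 against 74.3 expected in IVF (combined limma and exact binomial test, adjusted p = 0.0122). The gap was present in windows of low and high depth: at 2000 to 4000 calls it was open in 1 of 15 SCNT and 7 of 9 IVF blastomeres, at 4000 to 8000 calls in 3 of 17 SCNT and 26 of 35 IVF blastomeres, and at 16000 calls or more in 1 of 14 SCNT and 26 of 37 IVF blastomeres. It sits in a run of regions, viewed after its value was known, in which V278112, V278114, V278115 and V278117 were open in every IVF blastomere, down to the one with 0.240% of regions open. In SCNT these regions were open in 39, 42, 32 and 53 of 71 blastomeres. Between them, V278116 was open in 19 of 71 SCNT blastomeres and 94.6% of IVF blastomeres. Next to this run, V278110, V278111 and V278118 were open in 1, 0 and 0 of 71 SCNT blastomeres and in 0, 4 and 3 IVF blastomeres. Just before them, V278108 and V278109 went the other way, open in 22 and 14 of 71 SCNT and 4 and 3 IVF blastomeres.

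**Figure D5:**
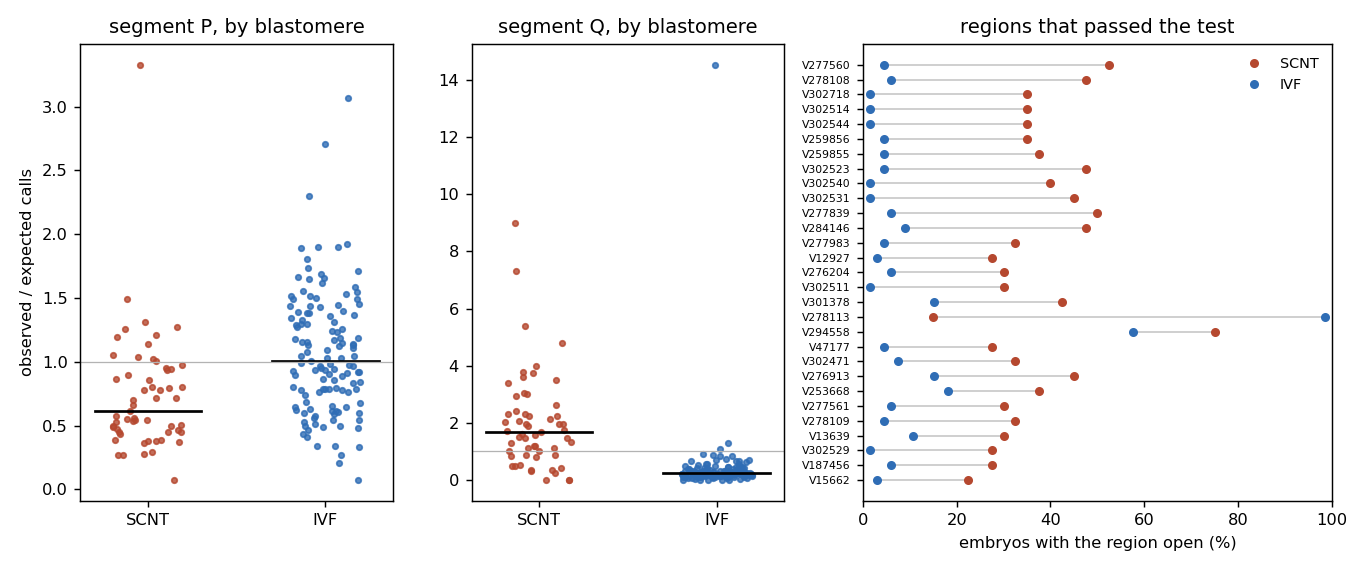
Left and middle, observed over expected calls in segments P and Q for SCNT and IVF blastomeres with at least 1000 calls, with bars at the medians (0.611 and 1.00 in P, 1.70 and 0.243 in Q); right, percentage of 40 SCNT and 66 IVF embryos in which each of the 29 regions that passed was open. In Q 42 SCNT and 3 IVF blastomeres lie above 1, and an IVF blastomere, at 14.5, lies above every SCNT value; 28 regions are open more often in SCNT embryos.

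The 28 regions higher in SCNT were spread unevenly over SCNT embryos. Without regard to depth, 5 or more of them were open in 27 of 40 SCNT and 5 of 66 IVF embryos. An SCNT embryo had a median of 11 of them open (range 0 to 24, n = 40) and an IVF embryo a median of 1.5 (range 0 to 17, n = 66), as a description of regions chosen for this difference. None was open in 1 SCNT embryo and in 16 IVF embryos. In the IVF embryo with the most, 17, 16 were open in blastomere_542B and 4 in blastomere_542A, and the next IVF embryos had 12 each. Embryos of later cell numbers also entered the fit of region openness behind the expected calls, so they are not independent of the choice. At 4 cells 25 of the 28 were above expectation in SCNT and below it in IVF, as were 25.1% of all 60461 tested regions. At 8 cells 26 of the 28 were, and 30.8% of all tested regions.

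Fewer single regions passed without the blastomeres that lack a block. There, 0 regions were higher and 1 was lower in SCNT, in 39 SCNT and 39 IVF embryos over 23969 regions. Of these regions 5.43% had an unadjusted p under 0.05 by the combined limma and exact binomial test. With SCNT of prefix 15243 against IVF of prefix 15286, 17 were higher and 1 lower, and all 18 were among the 29. With SCNT of prefix 15244, 2 were higher and 0 lower, and 0 of the 29 were among them. Leaving out 1 run of embryo numbers at a time gave 13 (without the last IVF run) to 28 higher regions.

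The likeness of embryos within a type did not differ between SCNT and IVF past the threshold. With each blastomere thinned to 1000 calls, the mean Jaccard index, the shared open regions over those open in either, was 0.0106 between SCNT embryos (n = 37) and 0.0100 between IVF embryos (n = 66), a difference of 0.000608 (permutation test, adjusted p = 0.655). Between SCNT and IVF embryos it was 0.00944. Between sisters it was 0.0112 in 20 SCNT and 0.0107 in 61 IVF pairs. At 500 calls the difference was 0.00285 (permutation test, adjusted p = 0.00308) and at 4000 calls -0.00504, so its direction was not stable.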

How the data were processed

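The authors deposited 1 table of 302830 regions by 819 blastomeres, 200 of them at 2 cells, whose values are all 0 or 1. They were read as closed and open calls, not counts of reads, so depth in reads is unknown. The submitters' processing notes list FastQC 0.10.1, Bowtie2 2.2.6 and bedtools. The build and the calling rule: not given in the sources used here. Columns were tied to libraries by constant offsets of their numbers, an inference from the numbering. The members, lists and tests were chosen with earlier results of these data known.

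The chance of an open call was taken as 1 - exp(-ab), with a the depth of the blastomere and b the openness of the region, fitted to all 819 blastomeres. Blocks came from 325 blastomeres of other cell numbers with at least 8000 calls. Coverage needed 1000 calls per blastomere, and absent blocks and sister correlations 2000 in the blocks. Types were compared over embryos by two-sided permutation of their labels (100000 shuffles, 10000 for similarity), p-values were adjusted by Benjamini-Hochberg, and the threshold was an adjusted p of 0.05. Regions were tested with a quasi-Poisson score test, its dispersion moderated by limma (version 3.58.1, R version 4.3.3), and p was the larger of that and an exact binomial p. The test was tried on simulated data first. Regions named are the 10 with the smallest p in each direction, and blocks named are all that passed and the 3 most often absent in each type, tied at 1 in 8 SCNT blocks. Others named were chosen after their values were seen. Python used numpy 2.4.6, scipy 1.17.1 and matplotlib 3.10.9. Alternatives left out runs of consecutive embryo numbers in turn, 5 in SCNT and 4 in IVF, and changed prefix, filters, depth and test. A second library labelled 537A, under prefix 15287, has no column and was not analysed here.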

Additional observations from a re-analysis of the deposited data

How the results depend on the processing

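Of the values under alternatives, 84.8% kept their direction and side of the threshold or, for counts, stayed within 1.5 times. Leaving out each of the 9 runs of embryo numbers moved the spread of calls over 0.0733 to 0.122 (past the threshold without SCNT run 4, at 0.0984, and run 5), the similarity difference over -0.000518 to 0.00127 and the sister correlation difference over 0.405 to 0.536. It moved the share of tested regions called higher in SCNT over 0.0219 to 0.0466% (15 regions without IVF run 3, 13 without IVF run 4, 16 without SCNT run 2 and 15 without SCNT run 5) and lower over 0 to 0.00303% (2 regions without SCNT run 1 or 2, 0 without SCNT run 3 or 5). The similarity difference reversed without IVF run 3 (-0.000518), at 2000 calls (-0.000159), at 4000 calls (-0.00504) and without blastomeres lacking a block (-0.0033), and passed at 500 calls (0.00285). Commonly open regions inside the blocks reversed to 0.0818, or -0.0167 at 3000 to 15000 calls. SCNT of prefix 15244 gave a sister correlation difference of 0.443 without passing. At 3000 to 15000 calls 3 of 33 blocks and segments passed in place of 5. The share of tested regions called higher in SCNT was 0.0695% with a 25% filter (5 regions), 0% without blastomeres lacking a block, 0.0267% with prefix 15243 (17 regions), 0.00255% with prefix 15244 (2 regions), 0.731% by the score test alone, 1.86% by limma on log2 ratios and 0% by Fisher's exact test on embryos thinned to 2000 calls, where 6.96% of 1867 regions had an unadjusted p under 0.05. The share called lower was 0% with depth from commonly open regions, 0% with prefix 15244, 0.736% by the score test alone, 1.81% by limma and 0% by Fisher's exact test. In simulated data without change the score test alone called 3 of 61935 regions. Where other regions were changed, it called 25 of 62024 unchanged regions and the main test called 1. The causes were not tested. Including blastomere_537A of prefix 15287 was not run because it has no column. The windows of calls for blocks and segments, the split of commonly open regions by block and the removal of blastomere_542B were chosen after seeing the data. No paired analysis was possible because SCNT and IVF embryos share no replicate numbers. At a median of 3484 calls per SCNT blastomere, the region test called 0 of 33 simulated 4-fold falls in SCNT, all at moderately open regions.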
